A study of Vitis riparia with 12 samples.

Results

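Of 29970 genes measured in the shoot tip of Vitis riparia, a North American grapevine, 345 stood lower after 21 days than after 7 days of differential photoperiod, under short days and under long days alike. The genes were chosen by their measured FPKM (mapped fragments scaled by transcript length and by the fragments mapped in the library). The group mean at day 21 had to be under 0.67 of the mean at day 7 in each photoperiod, and over 0.125 of it under short days. The largest group mean had to reach 5 FPKM, and the 3 day 21 libraries had to lie below the 3 day 7 libraries in each photoperiod. The change with time therefore chose these genes, and it is described here without a test.

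The groups were SD21 and LD21 (21 days) and SD7 and LD7 (7 days), with 3 libraries each, and SD stands for a photoperiod of 13 h and LD for 15 h. All vines were of genotype PI588259, were potted and 6 years old, and had grown for 30 days at 15 h before they were randomized. The photoperiods began to differ 5 days later. Each library came from tips of 4 nodes pooled over 5 vines, so a value is an average over organs and plants. No harvest or sequencing batch is given in the labels, and the effect of elapsed time cannot be told apart from that of the harvest day.

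A shoot tip holds the apical meristem with young leaves, tendrils and elongating internodes, and its transcript levels reflect how actively these tissues divide, expand and differentiate. In this species a shortened photoperiod leads to an end of shoot growth, to periderm formation and to bud dormancy, while vines under long days keep growing. A gene that stands lower at the later day under both photoperiods is a part of the transcriptome in which time went with a decrease whichever day length was given. In bulk samples, fewer cells that carry a transcript and less transcript per cell cannot be told apart. The gene identifiers of the files were not paired with names or functions in the tables used here, which leaves position, level and pattern to describe, and no roles are assigned. For the same reason the tissue label was not checked against marker genes.

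Falling under long days was the scarcer condition. By the same limits 1639 genes were lower in LD21 than in LD7 (7.5% of the 21848 genes tested), and 5052 genes were lower in SD21 than in SD7 within the bound (23.1%). The 345 genes were 21.0% of the first list and 6.83% of the second, which share no library. A further 79 genes met every limit except that SD21 stood at 0.125 of SD7 or less. Of the 1639 genes lower in LD21, 593 (36.2%) were higher in SD21 than in SD7 by the mirrored limits and 622 moved neither way by these limits. Over all genes, 3564 were higher in SD21 than in SD7 by the mirrored limits. All these lists were drawn from the 17213 genes that reached a group mean of 5 FPKM, fewer than the tested genes. No test was made of the overlaps. The mirrored limits for a rise under both photoperiods were met by 224 genes.

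**Figure D1:**
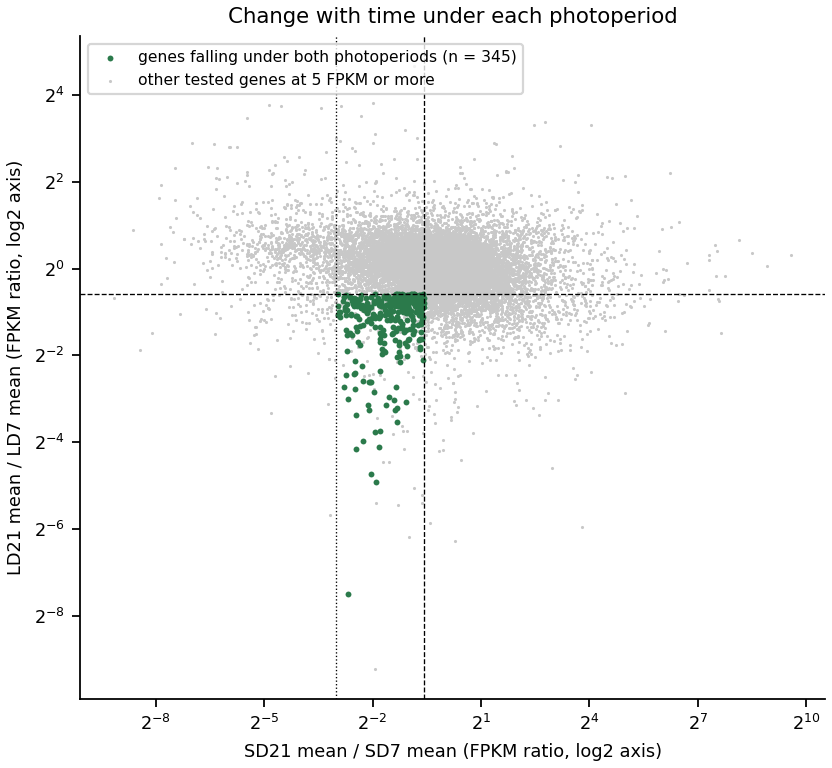
Ratio of group means at day 21 over day 7 under short days (horizontal, log2 axis) and long days (vertical, log2 axis) for each tested gene with a group mean of 5 FPKM or more. The 345 falling genes (green) fill the corner below 0.67 on both axes (dashed lines) and right of 0.125 (dotted line), and grey points in that corner had overlapping libraries. A total of 107 genes with a group mean of 0 are not drawn.

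The summed level of the 345 genes took 2.81%, 3.12% and 1.98% of all FPKM in the SD21 libraries and 3.00%, 2.68% and 3.53% in the LD21 libraries. It took 6.16%, 6.97% and 7.27% in the SD7 libraries and 6.76%, 6.32% and 6.42% in the LD7 libraries. The 6 genes with the highest day 7 mean made up 36.6% to 53.7% of this sum, depending on the library. The median gene of the group stood at 11.0, 10.5 and 8.92 FPKM in SD21 and at 13.1, 13.9 and 15.4 FPKM in LD21. At day 7 the median was 29.7, 27.0 and 27.0 FPKM in SD7 and 26.9, 30.0 and 33.3 FPKM in LD7. The day 7 libraries of both photoperiods overlapped in the summed and in the median level, and in the median level the SD21 libraries lay below the LD21 libraries. SD21 replicate 3 was the lowest of its group in 238 of the 345 genes, and in 6636 of the 17159 tested genes that reached a group mean of 5 FPKM.

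**Figure D2:**
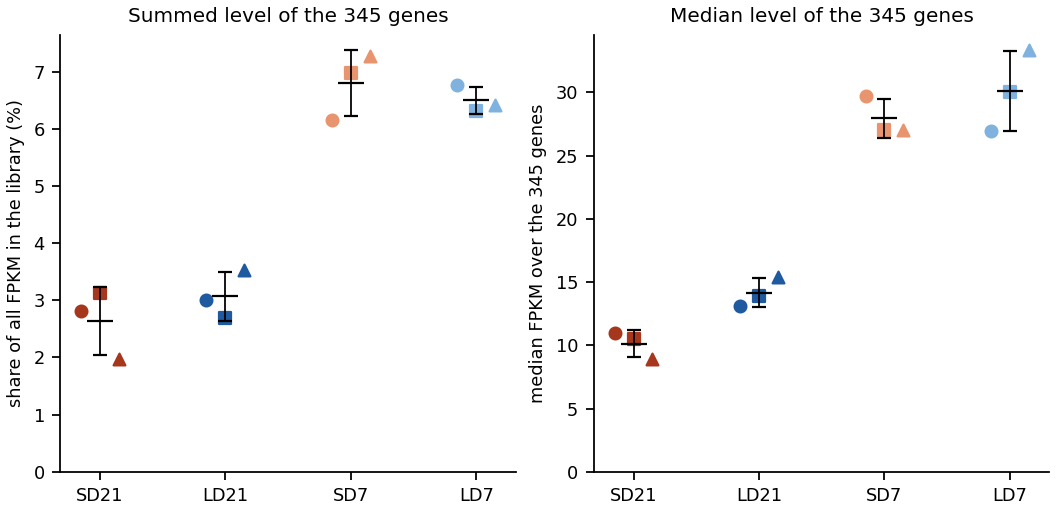
Summed level of the 345 falling genes as a share of all FPKM in each library (left) and their median FPKM (right). Circles, squares and triangles are replicates 1, 2 and 3, and lines are the mean ± SD of 3 libraries. The day 21 libraries hold shares of 1.98% to 3.53% and the day 7 libraries 6.16% to 7.27%.

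The genes ranged widely in how much transcript was left. The SD21 mean was a median 39.1% of the SD7 mean, with the middle 50% of genes between 25.1% and 51.2%, and the LD21 mean was a median 53.0% of the LD7 mean, with 39.6% to 59.8%. Both photoperiods left under 50% in 119 genes, short days alone in 135, long days alone in 25 and neither in 66. Less than 25% was left in 86 genes under short days, in 38 under long days and in 19 under both. The medians were closer once set against all tested genes. On log2(FPKM + 1), the median of the 345 genes was -1.26 in SD21 against SD7, where all tested genes had -0.20, and -0.88 in LD21 against LD7, where all tested genes had 0.11. Relative to all tested genes the medians were -1.06 under short days and -0.99 under long days. Their closeness is partly set by the choice of the genes, which used the same upper limit for both ratios and a lower bound for the short-day ratio alone.

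The median share left was also set out by level. The 133 genes below 20 FPKM on average at day 7 kept a median 35.8% under short days and 51.3% under long days, and the 130 genes at 20 to 100 FPKM kept 40.8% and 53.2%. The 69 genes at 100 to 1000 FPKM kept 42.6% and 54.8%, and the 13 genes above 1000 FPKM kept 43.2% and 48.0%.

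Several of the most abundant transcripts of the day 7 shoot tip were among these genes, and the 6 highest came from short loci of 816 to 1127 bp on chromosomes 8, 10, 11 and 12. VIT_10s0003g02890 (chromosome 10, 5014594 to 5015426), the most abundant, stood at 5289, 6469 and 4066 FPKM in SD21 and at 2559, 1913 and 2786 FPKM in LD21. At day 7 it had 7323, 11071 and 13344 FPKM in SD7 and 7871, 7494 and 7051 FPKM in LD7. The locus at 5026577 to 5027393 on the same chromosome, the next tested gene, had 2950, 3572 and 2198 FPKM in SD21 and 1354, 1010 and 1640 FPKM in LD21, and its day 7 means were 6213 ± 1694 FPKM in SD7 and 4350 ± 223 FPKM in LD7 (SD, n = 3). These neighbours kept a nearly fixed proportion, since the first stood 1.67 to 1.89 times above the second in all 12 libraries. Whether the loci share sequence, and so reads, was not tested. Both kept more transcript under short days, 49.9% and 46.8%, than under long days, 32.4% and 30.7%.

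Other loci of this class showed the range of patterns at day 21. The locus on chromosome 8 at 14633088 to 14634214 (VIT_08s0007g00330) had 882, 1313 and 268 FPKM in SD21 and 3671, 2669 and 4855 FPKM in LD21, against 5540 ± 1600 FPKM in SD7 and 6928 ± 2229 FPKM in LD7 (SD, n = 3). The locus on chromosome 11 at 5370080 to 5370895 had 1284, 1388 and 618 FPKM in SD21 and 2987, 1988 and 2294 FPKM in LD21, against 4237 ± 320 FPKM in SD7 and 4192 ± 283 FPKM in LD7. In both, every SD21 library lay below every LD21 library, while the day 7 libraries of the photoperiods overlapped. The order was turned round in VIT_11s0016g01220 on the same chromosome 11 (967278 to 968160), with 2342, 2709 and 1444 FPKM in SD21 and 490, 691 and 1113 FPKM in LD21. Its day 7 means of 3294 ± 125 FPKM in SD7 and 3301 ± 184 FPKM in LD7 were the closest of the 6.

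The locus on chromosome 12 at 931773 to 932592, the last of the 6, averaged 2577 ± 461 FPKM in SD21 and 1713 ± 366 FPKM in LD21, against 4738 ± 1113 FPKM in SD7 and 4194 ± 212 FPKM in LD7 (SD, n = 3). Its SD21 against LD21 difference was called (log2 fold change 0.60 ± 0.21, SE, adjusted p = 0.023). The call was lost without LD21 replicate 1 (adjusted p = 0.053), LD21 replicate 2 (0.10) or SD21 replicate 2 (0.090), and quantile normalization turned the value to -0.20 (adjusted p = 0.31).

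**Figure D3:**
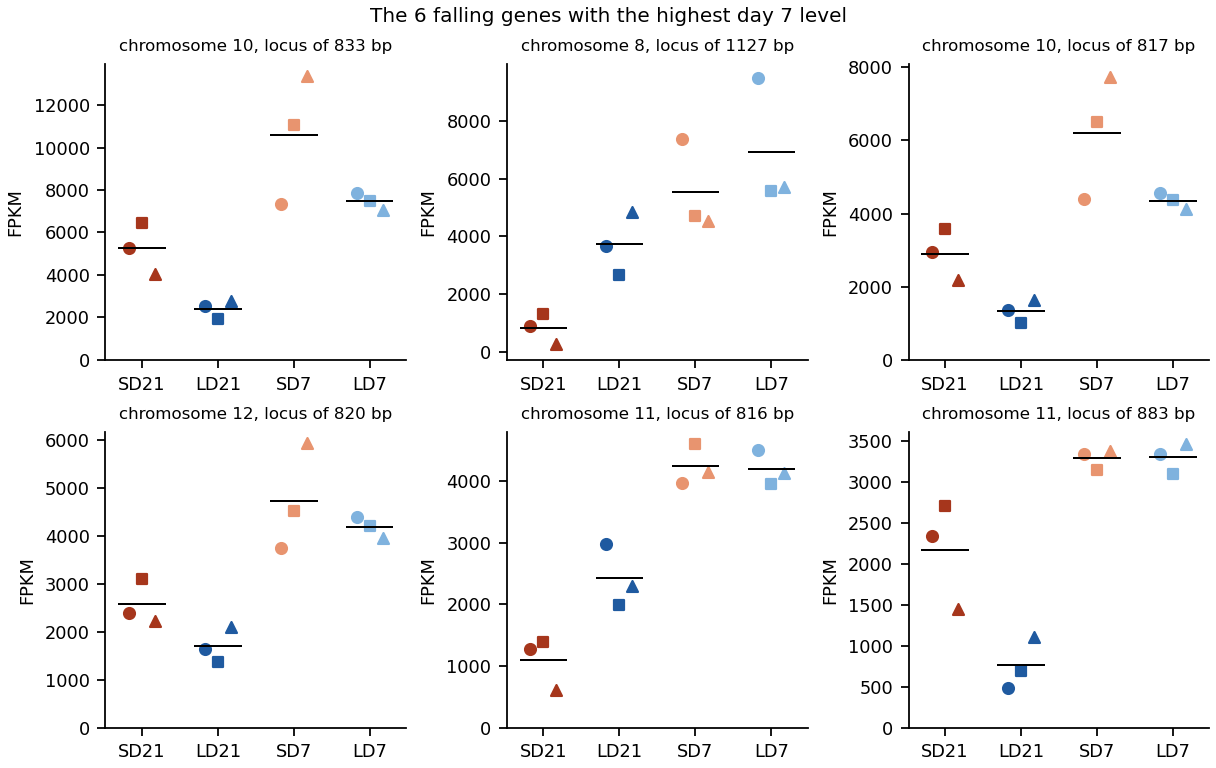
FPKM in every library for the 6 falling genes with the highest mean at day 7, each panel with its own linear axis. Circles, squares and triangles are replicates 1, 2 and 3, and lines are means of 3 libraries. SD21 lies above LD21 in the loci of 833, 817, 820 and 883 bp and below it in the loci of 1127 and 816 bp.

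The deepest falls rested on uneven day 7 libraries. VIT_08s0040g02020 (chromosome 8, 13111820 to 13118354) had the lowest mean ratio. It was at 0.962 FPKM in 1 SD21 library and listed at 0 in the other two, and at 0, 0 and 0.164 FPKM in LD21. At day 7 it had 1.8, 1.84 and 2.49 FPKM in SD7 and 0.916, 4.73 and 24.1 FPKM in LD7. The LD7 libraries differed 26.3-fold in this gene, more than any other of the 345. The next locus in depth, on chromosome 13 at 1088119 to 1091172, had 2.89, 1.52 and 1.72 FPKM in SD21. It had 1.03, 0.358 and 1.13 FPKM in LD21. Its day 7 values were 13.2, 5.52 and 4.06 FPKM in SD7 and 2.77, 36.5 and 36.6 FPKM in LD7. On chromosome 12 at 6622258 to 6623762 the values were 3.27, 1.04 and 0.978 FPKM in SD21 and 1.18, 1.12 and 0.728 FPKM in LD21. At day 7 they were 10.3, 7.15 and 4.47 FPKM in SD7 and 5.18, 17.9 and 57.6 FPKM in LD7.

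The other 3 of the 6, on chromosome 4 at 13532929 to 13535176, chromosome 8 at 14892097 to 14900597 and chromosome 1 at 2281192 to 2282179, showed the same order, with LD7 replicate 1 the lowest of its group and SD21 means of 1.5, 1.01 and 9.70 FPKM. In the 6 loci the LD7 libraries differed 6.69- to 26.3-fold. None of the 6 was called between SD21 and LD21 or between SD7 and LD7 (adjusted p from 0.41 to 0.94).

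**Figure D4:**
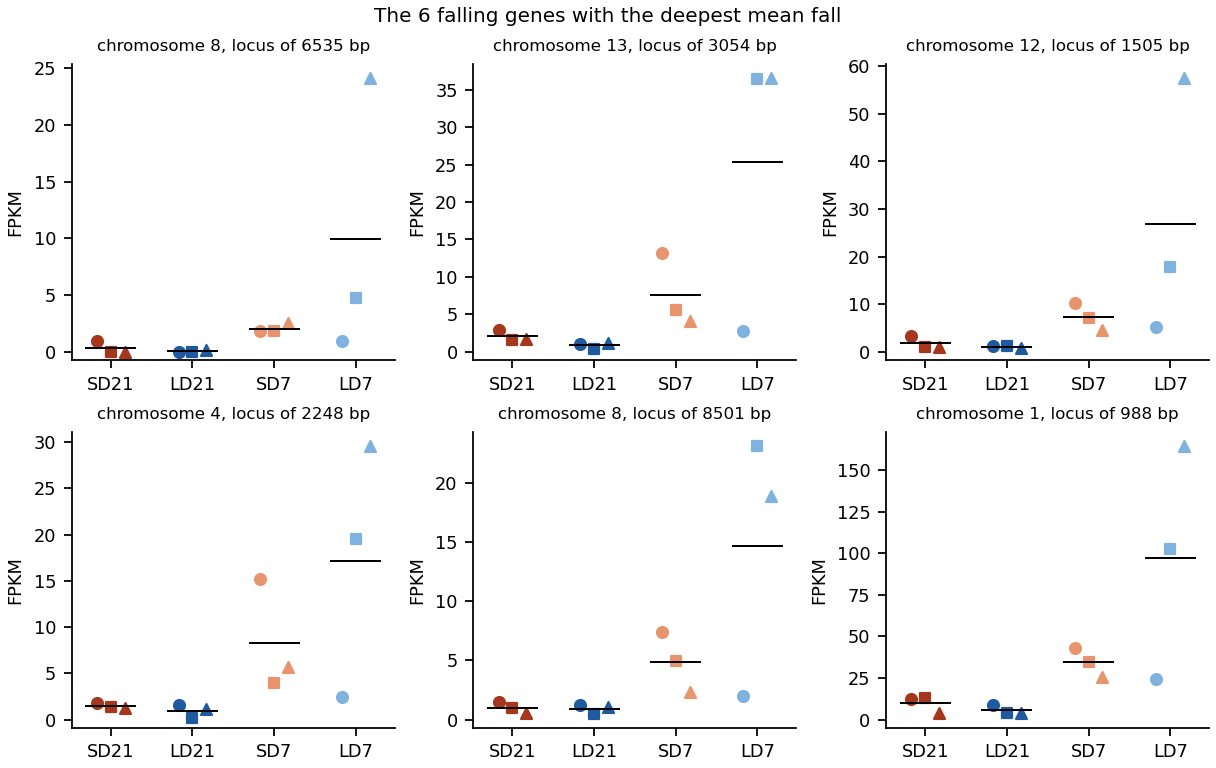
FPKM in every library for the 6 falling genes with the lowest mean log2 ratio of day 21 over day 7, each panel with its own linear axis. Circles, squares and triangles are replicates 1, 2 and 3, and lines are means of 3 libraries. LD7 replicate 1 (circle) is the lowest LD7 library in all 6 panels.

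This order ran through the genes with the deepest fall under long days. Of the 38 genes left under 25% in LD21, 33 had their lowest LD7 value in replicate 1, and in 32 the LD7 libraries differed at least 3-fold, with a median of 5.75-fold. In the other 307 genes, replicate 1 was lowest in 117, and the LD7 libraries differed a median 1.20-fold. In the same 38 genes, SD7 replicate 3 was the lowest SD7 library in 30, against 67 of the other 307. SD21 replicate 3 was the lowest SD21 library in 30, against 208 of the other 307. LD21 replicate 2 was the lowest LD21 library in 27, against 103 of the other 307. Set against LD7 replicate 1 alone, 7 of the 345 genes were left under 25% in LD21. With LD7 replicate 1 as the only LD7 library 284 of the 345 genes met all limits. Without that library 436 genes met them, 338 of the 345 among them. Leaving out LD21 replicate 1 or LD21 replicate 3 instead gave 420 and 421 genes, so a higher count was not particular to LD7 replicate 1. With 1 library fewer, the limit on overlap is also easier to meet.

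The photoperiods were compared within each day, a contrast that the choice of the genes did not use, although it used the same libraries. Differences were called at an adjusted p under 0.05 from limma, fitted over all 21848 tested genes on log2(FPKM + 1). At day 21, 133 of the 345 genes (38.6%) were lower and 28 (8.12%) were higher in SD21 than in LD21. Among all tested genes 43.7% were called lower and 24.6% higher. With the deposited values the share lower was near that of all genes. The choice of the genes held SD21 below SD7 and LD21 below LD7, so it bears on both directions of this contrast. How far it shaped the counts was not tested. The split depended on scaling. After quantile normalization 83 of the 345 genes (24.1%) were lower and 54 (15.7%) higher, where 33.2% and 33.4% of all tested genes were. After median-ratio scaling 82 (23.8%) were lower and 59 (17.1%) higher, where 33.9% and 33.2% of all tested genes were. Under both scalings the share lower lay further below that of all tested genes than with the deposited values. The median log2 fold change of all tested genes was -0.30 with the deposited values, 0.00059 with quantile normalization and -0.02 with median-ratio scaling, and that of the 345 genes was -0.43, -0.11 and -0.13. Without SD21 replicate 3, 113 were lower and 40 higher.

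The 133 genes lower in SD21 had a median of 7.86 FPKM in SD21, 16.4 FPKM in LD21, 29.4 FPKM in SD7 and 31.4 FPKM in LD7, so that a median 26.5% was left under short days and 56.9% under long days. In 65 of them the difference on log2(FPKM + 1) was at least 2-fold. VIT_08s0007g06520 (chromosome 8, 20250187 to 20251901) had 17.9, 23.2 and 14.4 FPKM in SD21 and 134, 79.2 and 130 FPKM in LD21, with overlapping day 7 libraries of 114 to 164 FPKM in SD7 and 147 to 198 FPKM in LD7. Its log2 fold change in SD21 against LD21 was -2.55 ± 0.23 (SE, adjusted p = 1.9e-06), and the difference at day 7 was not called (-0.27 ± 0.23, adjusted p = 0.64). VIT_08s0007g00330, given above among the most abundant, had -2.42 ± 0.50 (adjusted p = 0.0013) at day 21. The loci on chromosome 14 at 16884619 to 16885710 (-2.36 ± 0.29, adjusted p = 2.4e-05) and chromosome 17 at 8408103 to 8412048 (-2.10 ± 0.24, adjusted p = 1.0e-05) followed. On chromosome 14 the libraries held 3.15, 4.47 and 1.46 FPKM in SD21 and 16.9, 15.6 and 24.2 FPKM in LD21, and those of SD7 (15.9 to 30.2 FPKM) already lay below those of LD7 (36.4 to 40.0 FPKM). On chromosome 17 they held 5.72, 5.91 and 2.70 FPKM in SD21 and 25.8, 22.5 and 20.7 FPKM in LD21, and the day 7 libraries overlapped.

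The 28 genes higher in SD21 had a median of 28.1 FPKM in SD21, 18.0 FPKM in LD21, 49.7 FPKM in SD7 and 37.2 FPKM in LD7, with a median 60.2% left under short days and 41.0% under long days. The difference on log2(FPKM + 1) was at least 2-fold in 7 of them. On log2(FPKM + 1) with the deposited values, VIT_11s0016g01220, given above, had the largest (log2 fold change 1.53 ± 0.28, SE, adjusted p = 0.00048). VIT_11s0016g04160 (chromosome 11, 3394735 to 3399120) was much less abundant, with 2.12, 6.78 and 2.93 FPKM in SD21, 1.44, 0.220 and 0.556 FPKM in LD21, 7.88 to 12.8 FPKM in SD7 and 6.06 to 12.8 FPKM in LD7. Its log2 fold change of 1.45 ± 0.38 (adjusted p = 0.0054) became 2.39 with a pseudocount of 0.1 and 1.77 with quantile normalization, larger than the 1.53 and 1.20 of VIT_11s0016g01220 in the same fits. The chromosome 10 neighbours followed with 1.12 ± 0.25 and 1.12 ± 0.24 (adjusted p = 0.0018 and 0.0015). Both calls of the pair were lost after quantile normalization (adjusted p = 0.13 and 0.46), while VIT_11s0016g01220 kept its call (adjusted p = 0.0079). The reason was not tested.

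**Figure D5:**
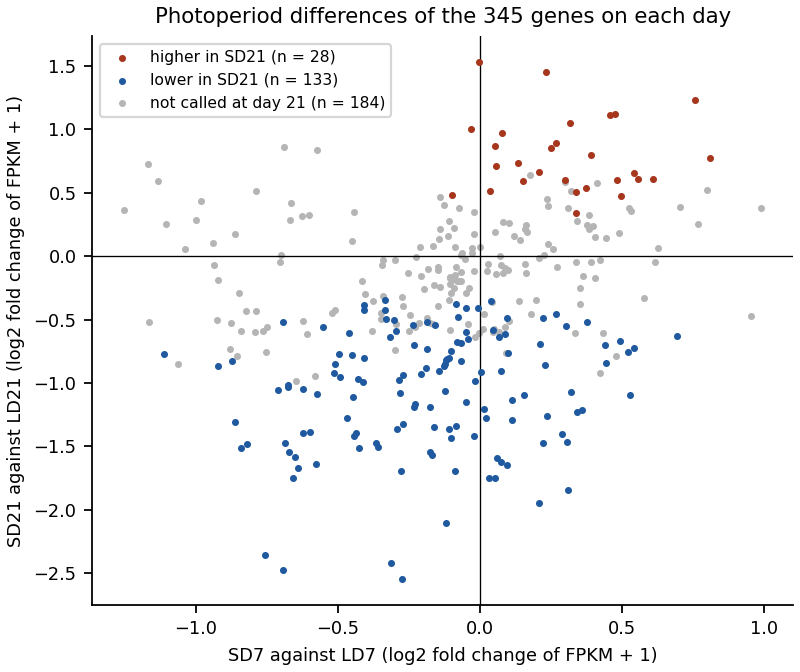
Log2 fold change of FPKM + 1 between photoperiods for the 345 falling genes, SD7 against LD7 (horizontal) and SD21 against LD21 (vertical). Colours give the day 21 call, with 28 genes higher in SD21, 133 lower and 184 not called. More of the points lie below 0 than above it on the vertical axis.

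At day 7 the photoperiods were close in these genes. The median log2 fold change of SD7 against LD7 was -0.09 over the 345 genes and -0.03 over all tested genes. VIT_08s0007g00710 (chromosome 8, 14915282 to 14916091) was called higher, with 332, 453 and 497 FPKM in SD7 and 185, 236 and 217 FPKM in LD7 (log2 fold change 0.99 ± 0.19, SE, adjusted p = 0.046). It averaged 184 ± 48.8 FPKM in SD21 and 139 ± 6.97 FPKM in LD21 (SD, n = 3, adjusted p = 0.11), a difference that was called under quantile normalization and median-ratio scaling (adjusted p = 0.014 and 0.013). VIT_13s0067g03390 (chromosome 13, 1859637 to 1891446) was called lower, with 3.34, 2.53 and 3.96 FPKM in SD7 and 7.55, 6.58 and 6.07 FPKM in LD7 (-0.86 ± 0.17, adjusted p = 0.045). It stayed lower at day 21, with 0.876, 0.763 and 0.568 FPKM in SD21 and 3.76, 3.48 and 2.67 FPKM in LD21 (-1.31 ± 0.17, adjusted p = 3.2e-05). That is 1 gene higher and 1 lower of 345, where 0.357% and 0.476% of all tested genes were called. At an unadjusted p under 0.05 there were 59 of the 345 and 3258 of all tested genes. The 182 calls over all tested genes became 2 to 103 without any 1 of the 6 day 7 libraries, 69 without LD21 replicate 2, 99 without SD21 replicate 1 and 111 without SD21 replicate 3. Each of the 2 calls was lost in 16 of 20 alternatives, among them each fit without a day 7 library, with adjusted p up to 0.15 for the first and 0.17 for the second.

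Without regard to day 7 calls, all 3 SD7 libraries lay below all 3 LD7 libraries in 51 of the 345 genes, or 14.8%. They did so in 13.7% of all tested genes. They lay above them in 41 genes, or 11.9%, against 11.1% of all tested genes. Among the 133 genes called lower in SD21 they lay below in 41 and above in 12. Among the 28 called higher they lay below in 0 and above in 12, and among the 184 not called in 10 and 17. The matching counts over all tested genes with the same calls were not made. Whether this split is particular to the 345 genes therefore cannot be read from it. Short-day libraries lay below long-day libraries on both days in 38 genes, or 11.0%, where 7.55% of all tested genes did so. They lay above on both days in 9 genes, or 2.61%, against 4.49% of all tested genes. In 10 genes, or 2.9%, they lay above at day 7 and below at day 21, against 3.03% of all tested genes. The reverse was found in 0 of the 345, against 2.89% of all tested genes. As with the day 21 calls, the choice of the genes held SD21 below SD7 and LD21 below LD7, and its effect on these counts was not tested.

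Most of the 345 genes lay apart from each other on the chromosomes. With at most 2 tested genes between members, 49 genes formed 21 groups of neighbours and 296 stood alone. Among the numbered chromosomes the largest share of tested genes was on chromosome 8, with 31 of 1319 (2.35%), and the smallest on chromosome 16, with 8 of 828 (0.966%), where all tested genes gave 1.58%. No test was made of these shares.

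The longest group was 5 consecutive tested genes on chromosome 3 at 862994 to 872380. Their summed level was 38.8 ± 9.82 FPKM in SD21, 64.7 ± 12.3 FPKM in LD21, 172 ± 27.9 FPKM in SD7 and 143 ± 27.9 FPKM in LD7 (SD, n = 3). The first, at 862994 to 863398, was not called between SD21 and LD21 (10.9 ± 2.97 and 9.44 ± 2.83 FPKM, adjusted p = 0.57). The other 4 were lower in SD21, with log2 fold changes of -1.09, -0.84, -0.91 and -0.75 in their order along the chromosome (adjusted p = 0.0027, 0.0022, 0.0085 and 0.0049). The calls of the last 2 were lost after quantile normalization (adjusted p = 0.12 and 0.10) and median-ratio scaling (0.065 and 0.069). The middle gene, at 866356 to 866897, held 10.8, 10.0 and 7.13 FPKM in SD21, 19.1, 15.9 and 16.8 FPKM in LD21, 45.7, 64.4 and 42.4 FPKM in SD7 and 38.2, 30.0 and 42.3 FPKM in LD7. If such neighbours are near-identical copies, the authors' counting may have split reads between them, which leaves each gene's own level uncertain.

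On chromosome 13 at 22980572 to 22994879, 3 consecutive tested genes summed to 17.9 ± 0.958 FPKM in SD21, 30.0 ± 4.23 FPKM in LD21, 36.5 ± 10.1 FPKM in SD7 and 66.0 ± 7.70 FPKM in LD7 (SD, n = 3). In each of them the SD7 libraries lay below the LD7 libraries. The log2 fold changes of SD7 against LD7 were -0.93, -0.87 and -0.69 and were not called (adjusted p = 0.12, 0.058 and 0.17). At day 21 the genes at 22988592 to 22989045 and at 22993917 to 22994879 were called lower in SD21 than in LD21. Their log2 fold changes were -0.83 and -0.52 (adjusted p = 0.0019 and 0.049). The gene at 22980572 to 22980954 was not called at day 21 (-0.50, adjusted p = 0.091). On chromosome 8 at 14883663 to 14916091 there were 3 members within 5 tested genes. The third, VIT_08s0007g00710, is the gene called higher in SD7. The first and second were not called at day 7 (adjusted p = 0.47 and 0.52) and their libraries overlapped, with averages of 5.10 ± 1.99 and 4.88 ± 2.56 FPKM in SD7 and 17.9 ± 14.3 and 14.6 ± 11.2 FPKM in LD7 (SD, n = 3), LD7 replicate 1 being the lowest of its group in both.

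The genes came from shorter loci than most. The median locus, introns included, was 2144 bp long for the 345 genes and 3760 bp for all tested genes that reached a group mean of 5 FPKM. It was 2318 bp for all genes lower in LD21, 3893 bp for all genes lower in SD21 within the bound, and 2154.5 bp for the 224 genes higher at day 21 under both photoperiods by the mirrored limits. Members also had the shorter median, set against those tested genes, within the levels below 20 FPKM (2174 bp and 3837 bp) and at 20 to 100 FPKM (2262 bp and 4155 bp), at 100 to 1000 FPKM (2192 bp and 2754 bp) and above (831 bp and 1185 bp). Loci under 300 bp, whose FPKM are uncertain, were 5 of the 345 (1.45%) and 1.82% of those tested genes.

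At the limits of the rule the values were continuous. The ratio LD21 over LD7 was 0.6697 in the last gene inside and 0.6707 in the first outside, and 278 genes failed that limit alone. The ratio SD21 over SD7 was 0.6695 inside and 0.6729 outside, where 61 genes failed it alone, and at its lower bound 0.129 inside and 0.124 outside. The largest group mean was 5.11 FPKM in the last gene inside and 4.96 FPKM in the first outside, with 84 genes failing that limit alone. Overlap of the libraries alone kept 76 genes out under long days and 70 under short days.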

How the data were processed

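Libraries of 43 bp reads were made from total RNA of shoot tips, per the labels' protocols. The authors deposited 1 table per library with FPKM for 29970 gene identifiers, per the file headers. Cufflinks 2.2.1, TopHat2 2.0.13 with Bowtie2 2.2.4, cutadapt 1.8.1 and FastQC 0.11.3 are the tools listed per the submitters' processing notes. Which genome build and annotation were used, and whether strand was, is not given in the sources used here; coordinates are those of the files. FPKM scale with the library total, so a few very abundant transcripts lower all other values. The absolute depth is unknown and no counting interval can be given.

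One header is at odds with its label: SD21 replicate 3 carries the number of replicate 2. It was used as labelled, since libraries of a group had at most 1 nonzero value in common. The reference gene table matched 0 identifiers, so planned gene lists, marker checks and sequences were not used, and at most 2 identifiers a direction are printed for each comparison, as the rule for named genes set. That rule took the 6 highest genes at day 7, the 6 deepest mean log2 ratios, up to 4 called genes a direction in each photoperiod comparison, and groups of neighbours. The members, lists and tests were chosen with earlier results of these data known.

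The tests took the 21848 genes that reached 1 FPKM in 3 or more libraries, among them all 345, on log2(FPKM + 1), a scale on which low genes change by less than their ratio. limma 3.58.1 (R 4.3.3) fitted group means to the 12 libraries together (trend and robust eBayes, two-sided, Benjamini-Hochberg over all tested genes). The fit was tested on simulated data. The p-values measure the spread between pools of vines. An exact permutation test of 3 against 3 libraries cannot give a two-sided p below 0.1 and was not used. Alternatives are given with the results. Python 3.11.15 and matplotlib 3.10.9 drew the figures.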

Additional observations from a re-analysis of the deposited data

Results flagged for a closer look

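In 10 of the 345 genes every SD7 library lay above every LD7 library and every SD21 library below every LD21 library, which is 2.9% of them, where 3.03% of all tested genes did so. They were noted for this change of side, and the difference between the days was not tested. The log2 fold changes of SD21 against LD21 were -1.95 and -1.21 on chromosome 3 at 1283252 to 1285733 and at 7502148 to 7502253, -1.26 on chromosome 4 at 18526777 to 18529165 and -1.10 on chromosome 5 at 358652 to 359961. They were -0.84 and -0.75 in the middle and the last gene of the chromosome 3 group described above, -0.72 on chromosome 9 at 2889346 to 2893522 and -0.67 on chromosome 1 at 7734618 to 7740500. They were -0.63 on chromosome 5 at 19076754 to 19078272 and -0.46 on chromosome 18 at 6555831 to 6559893. All 10 were called at day 21, which largely restates how they were picked, and 7 and 6 of them were called with quantile normalization and median-ratio scaling. None was called in SD7 against LD7, where the log2 fold changes were 0.21 to 0.69. In the locus of 106 bp at 7502148 to 7502253, the values were 457, 508 and 547 FPKM in SD21, 867, 1280 and 1425 FPKM in LD21, 2739, 2715 and 2537 FPKM in SD7 and 2268, 2061 and 1913 FPKM in LD7, and such short loci have uncertain FPKM.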

How the results depend on the processing

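The number of falling genes was 345 and stayed between 342 and 436 with 1 library left out, which makes the limit on overlap easier to meet. Of the 345 genes, 317 to 339 met the rule in these runs. It was 119 with a ratio limit of 0.5. With quantile normalization 278 of the 345 genes met the rule and with median-ratio scaling 264. The 38 genes left under 25% in LD21 numbered 29 to 46 with 1 LD7 or LD21 library left out and 7 with LD7 replicate 1 alone, alternatives chosen after seeing the data. For SD21 against LD21 the counts of 28 higher and 133 lower became 54 and 83 with quantile normalization and 59 and 82 with median-ratio scaling, while those of all tested genes went with them, 5376 higher and 9545 lower becoming 7289 and 7261, and 7260 and 7398. The member counts ranged over 20 to 40 and 113 to 139 with 1 library left out. Over all genes, 14921 were called, and 13867 to 14871 with 1 library left out. Called in SD7 against LD7 were 1 member higher and 1 lower, and 0 to 1 each with 1 library left out. The higher count was 2 with quantile normalization or a filter at 5 FPKM. It was 0 with median-ratio scaling, without the trend, without a filter, when other groups were left out and under the replicate block. The lower count was 0 with median-ratio scaling, without a filter, when the pseudocount was 0.1, when other groups were left out and under the block. Where a limma count was 0, 39 to 88 of the 345 genes had an unadjusted p under 0.05. Over all genes the SD7 against LD7 count of 182 was 116 with median-ratio scaling, 108 without the trend, 83 without a filter, 9 when other groups were left out, 74 under the replicate block, and 2 to 208 with 1 library left out. The causes were not tested. The replicate numbers gave same-number correlations of -0.13 to 0.20, with the own number best in 5 of 18 comparisons, so they were not taken as pairs. The locus on chromosome 12 at 931773 to 932592 turned to -0.20 in SD21 against LD21 with quantile normalization. For 23 named genes, some of them chosen after seeing the data, the call in SD21 against LD21 was followed through the 20 alternatives. It was kept in all 20 by 14 genes and lost only with quantile normalization or median-ratio scaling by 8. The chromosome 12 locus lost it in other alternatives too. The called genes of the chromosome 13 group were not among those followed.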
